A study of Mus musculus with 7 samples.

Results

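The genes described here encode the enzymes of glycolysis, the machinery that senses oxygen, and well-known targets of the hypoxia-inducible factor HIF. They are 34 genes chosen by name, with no threshold on their values but with earlier results of these data known, from the 47643 gene rows of the study. All 34 were found through their Ensembl identifiers, and all 34 reached the mean of 1 normalised read count that was asked of a gene before it was tested. Expression was measured by 3′ mRNA sequencing in 7 flank tumours grown from MTO cells labelled sgPrkci/Prkcz, an edit of the pair of genes for atypical protein kinase C. The PEGPH20 group held 4 tumours (replicates 11, 12, 19 and 37) of C57BL/6 mice dosed at 0.0375 mg/kg with PEGPH20, a hyaluronidase coupled to polyethylene glycol, which degrades hyaluronan. The vehicle group held 3 tumours (replicates 14, 16 and 33) of C57BL/6 mice given vehicle. The mice were injected at 7 weeks of age with cells in 30% Matrigel under the skin of the right flank, were dosed 2 times a week for 3 weeks from day 15, and are labelled as 13 weeks old. Every tumour carried the same edit, so no tumour with intact Prkci and Prkcz enters the comparison, and the labels do not say whether the cells were a single clone or whether each tumour came from its own mouse. The p-values thus measure the spread between these tumours.

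Glycolysis turns glucose into pyruvate in the cytosol, and cells that are short of oxygen, or many tumour cells even with oxygen, reduce that pyruvate to lactate. HIF is a pair of proteins whose alpha subunit is hydroxylated by oxygen-dependent prolyl hydroxylases, bound by the VHL ubiquitin ligase and destroyed. When oxygen is low the alpha subunit persists and binds DNA at short elements, many with the core ACGTG. It thereby raises transcription of glucose transporters, glycolytic enzymes, angiogenic factors and its own hydroxylases. Transcripts of these targets are widely used as a readout of hypoxia in tumours. The comparison of PEGPH20 with vehicle asks how expression differed in tumours of mice given the enzyme, and no value here measures oxygen, lactate, HIF protein or hyaluronan.

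The libraries held 4582238 to 6703775 reads in the PEGPH20 group and 4204388 to 4304108 reads in the vehicle group. Of 11 epithelial markers, 10 were above 0 in all 7 libraries, with summed values of 15641 to 18274 normalised read counts with PEGPH20 and 17065 to 20396 with vehicle; Cdx1 was at 0 in every library. Several libraries stood apart in transcripts typical of muscle or skin, and the source of these transcripts was not tested. Markers of skeletal muscle summed to 198 to 3832 with PEGPH20 and 385 to 16914 with vehicle, and replicate 16 of vehicle and replicates 11 and 37 of PEGPH20 were the richest. Markers of keratinocytes summed to 89.7 to 112 with PEGPH20 and to 1251 in vehicle replicate 14, against 112 and 118 in the other vehicle libraries. In these bulk samples, fewer cells of a type and less RNA per cell cannot be told apart.

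No glycolysis or hypoxia gene passed the test. The limma test, run over 17132 genes with p-values adjusted by Benjamini and Hochberg's method and called under 0.05, called 0 of the 34 and 0% of all genes, and the members' adjusted p lay between 0.337 and 0.998. At an unadjusted p under 0.05 there were 2 of 34 members (5.88%), against 12.2% of all genes tested. Those members were Ldha and Hk1, both with larger values under PEGPH20, a direction shown by 7.58% of all genes at that p, against 4.58% in the other. With DESeq2 size factors in limma those shares were 6.01% and 5.91%, and the members were again Ldha and Hk1. The same pair were the 2 of 34 members whose groups did not overlap, against 11.2% of all genes in either direction, 6.72% with PEGPH20 higher and 4.45% with PEGPH20 lower. The edgeR test on recovered reads also called 0 of 34 members (0% of all genes), with 2 members and 13.0% of genes at an unadjusted p under 0.05. DESeq2 called 0 of the 29 members to which it gave an adjusted p, against 0.979% of the 7864 genes to which it gave one. At an unadjusted p under 0.05 in DESeq2 there were also 2 members, Ldha with larger and Vegfa with smaller values under PEGPH20, and Hk1 was not among them. The share was 6.09% over the 24487 genes of the DESeq2 run, a wider set that holds more low genes. Of the 17132 genes tested by limma, 1487 had an unadjusted p under 0.05 in DESeq2. The median log2 difference, PEGPH20 minus vehicle, was 0.03 over the members and 0.03 over all genes. In sign, 18 members (52.9%) had larger values with PEGPH20 and 16 had smaller values. Over all genes tested 54.0% had larger values, which is the share to set beside the sign counts below.

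**Figure D1:**
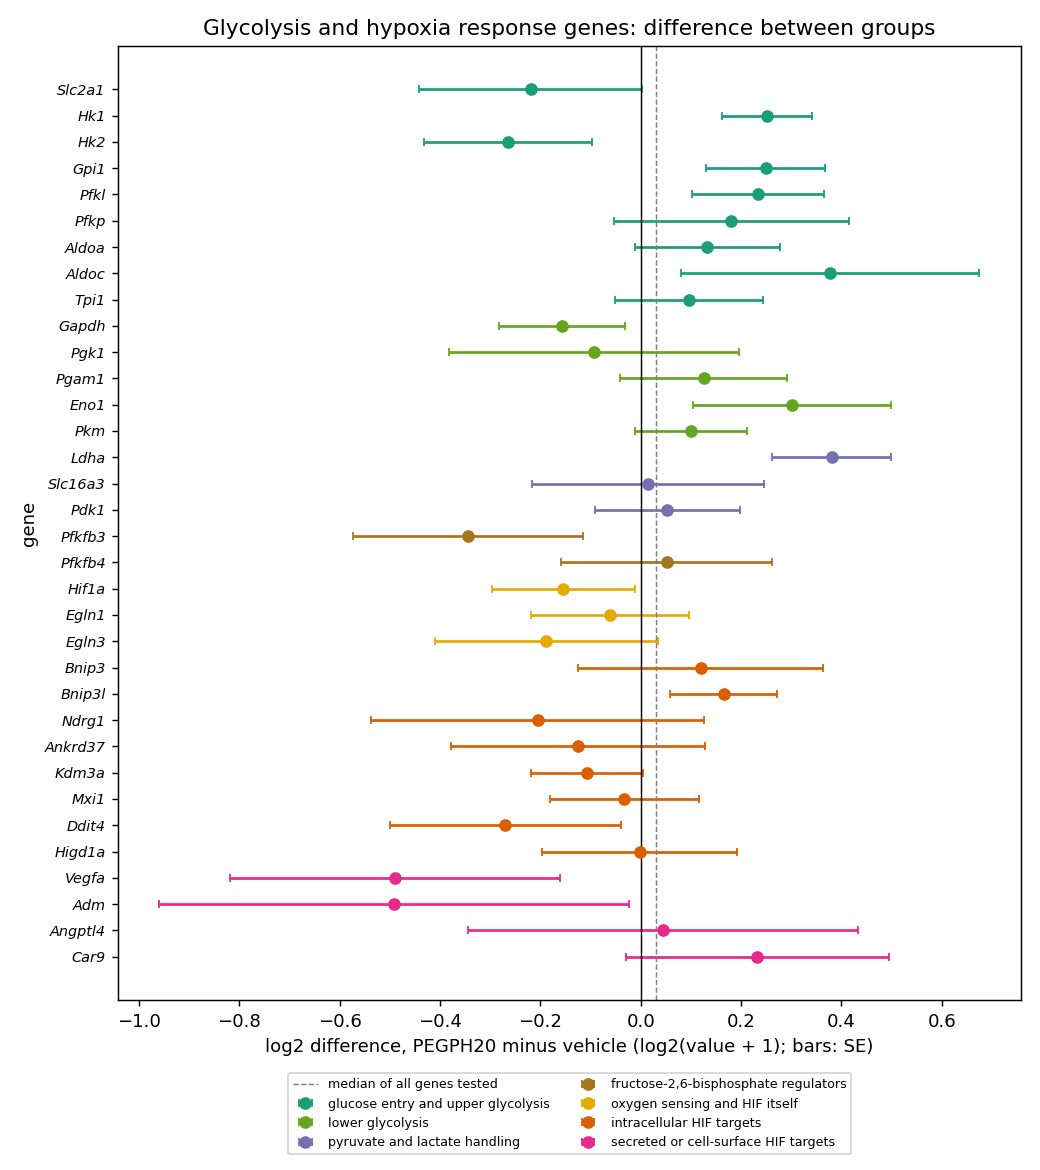
Log2 difference (PEGPH20 minus vehicle, on the log2(value + 1) scale, horizontal axis) of each of the 34 genes (vertical axis, grouped and coloured by role), with bars of 1 SE from limma over 4 PEGPH20 and 3 vehicle libraries; the dashed line is the median of all genes, 0.03. Ldha at 0.38 and Hk1 at 0.25 are the only members with an unadjusted p under 0.05; Vegfa and Adm at -0.49 lie lowest and have wide bars.

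Ldha encodes the lactate dehydrogenase subunit that favours the reduction of pyruvate to lactate. It read 1998, 1658, 1531 and 1802 normalised read counts in PEGPH20 replicates 11, 12, 19 and 37, against 1467, 1396 and 1162 in vehicle replicates 14, 16 and 33. Every PEGPH20 tumour thus lay above every vehicle tumour, but the gap between the lowest PEGPH20 and the highest vehicle value was small beside the spread in either group. The means were 1747 ± 201 with PEGPH20 (SD, n = 4) and 1342 ± 160 with vehicle (SD, n = 3), a log2 difference of 0.38 ± 0.12 (SE) (limma, adjusted p = 0.337). Under TMM, DESeq2 or upper-quartile scaling the groups of Ldha overlapped.

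Promoters were set beside these values because many of the genes are known HIF targets. RefSeq promoter sequences (GRCm38.p6, 250 bases before to 50 after the transcription start) were found for 31 of the 34 members. The motif ACGTG, searched on both strands, occurred in 17 of the 31 (54.8%), against 19.6% of all 32851 promoters of the same length. No other form of the element was searched, so a promoter without ACGTG may still hold one. Member promoters held a median of 21 CpG dinucleotides, against 7 over all promoters, and among the 8148 promoters with at least 21 the motif occurred in 29.0%. The palindrome CACGTG, which holds the motif on both strands and is also the E-box bound by MYC, was in 3 member promoters (9.68%), those of Ldha, Hif1a and Bnip3, against 7.15% of all. Members with the motif had a median log2 difference of -0.09 and the 14 without it 0.10, beside 0.03 for all genes, and no test was made of that split. The promoters printed are those with a match among the members of smallest p in each direction. None of these genes passed the test, so the promoters show the motif only in genes whose mean differences had opposite signs. The promoters run 5′ to 3′ on the gene's strand, and capitals mark ACGTG or its reverse complement CACGT, which merge where they overlap.
Ldha: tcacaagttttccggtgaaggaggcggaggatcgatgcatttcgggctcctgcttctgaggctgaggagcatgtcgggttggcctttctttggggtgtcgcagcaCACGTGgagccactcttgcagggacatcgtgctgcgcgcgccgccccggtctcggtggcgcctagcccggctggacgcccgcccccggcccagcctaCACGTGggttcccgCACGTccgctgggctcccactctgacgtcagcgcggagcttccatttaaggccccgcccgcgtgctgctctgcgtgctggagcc
Aldoc: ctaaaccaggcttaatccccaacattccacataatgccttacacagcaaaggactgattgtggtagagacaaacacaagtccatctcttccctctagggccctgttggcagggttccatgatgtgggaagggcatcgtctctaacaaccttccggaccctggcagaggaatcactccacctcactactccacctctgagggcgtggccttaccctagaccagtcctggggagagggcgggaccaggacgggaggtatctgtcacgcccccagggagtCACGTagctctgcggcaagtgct
Hk2: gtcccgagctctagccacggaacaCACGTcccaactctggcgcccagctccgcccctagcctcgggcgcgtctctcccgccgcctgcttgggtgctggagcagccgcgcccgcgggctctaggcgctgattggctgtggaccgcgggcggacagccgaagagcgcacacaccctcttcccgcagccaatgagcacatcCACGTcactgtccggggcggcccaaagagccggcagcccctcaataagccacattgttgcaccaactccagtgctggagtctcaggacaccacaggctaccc
Pfkfb3: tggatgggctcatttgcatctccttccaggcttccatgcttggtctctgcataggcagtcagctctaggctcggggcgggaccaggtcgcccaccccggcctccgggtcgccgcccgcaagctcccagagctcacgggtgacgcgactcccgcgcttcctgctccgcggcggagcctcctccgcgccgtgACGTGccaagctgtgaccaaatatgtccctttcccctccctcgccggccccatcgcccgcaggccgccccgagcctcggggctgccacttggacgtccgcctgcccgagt
Ldha (chr7:46845554-46845853, plus strand) held 2 palindromes and 1 further match, all upstream of the start. Aldoc (chr11:78322823-78323122, plus strand) held 1 match downstream of the start. Hk2 (chr6:82774405-82774704, minus strand) held 2 matches and Pfkfb3 (chr2:11553880-11554179, minus strand) held 1, all upstream. Ldha and Aldoc had larger mean values with PEGPH20, Hk2 and Pfkfb3 smaller ones. A match was asked of each promoter printed, and members of smaller p without one, among them Hk1, Gpi1 and Pfkl, were passed over.

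Genes of glucose entry and of the upper glycolytic steps had larger mean log2 values with PEGPH20 in 7 of 9 cases (77.8%), against 54.0% of all genes. Their median log2 difference was 0.18, against 0.03 over all genes. The hexokinases, which trap glucose by phosphorylation, had mean differences of opposite sign. Hk1, the widely expressed form (GRCm38 chromosome 10, 62268855 to 62379908), read 383, 404, 361 and 368 with PEGPH20, against 325, 334 and 296 with vehicle. These groups did not overlap, and the spread was narrow in both, at 19.1 with PEGPH20 and 19.8 with vehicle (SD). The log2 difference of Hk1 was 0.25 ± 0.09 (limma, adjusted p = 0.355), and an antisense gene, Hk1os, shares its exons, so its value is uncertain. Hk2, the hypoxia-inducible form, read 602, 482, 494 and 394 with PEGPH20, against 732, 483 and 568 with vehicle. The Hk2 groups overlapped, with vehicle replicate 14 highest and PEGPH20 replicate 37 lowest, and its log2 difference was -0.27 ± 0.17 (limma, adjusted p = 0.541). Slc2a1, the glucose transporter GLUT1 and a classical HIF target, read 891, 1019, 877 and 697 with PEGPH20, against 1451, 693 and 1009 with vehicle. The vehicle libraries of Slc2a1 thus spanned the whole PEGPH20 range (log2 difference -0.22 ± 0.22, limma, adjusted p = 0.706).

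The enzymes of the upper steps after hexokinase had larger means with PEGPH20. Gpi1, glucose-phosphate isomerase, read 515, 496, 413 and 498 with PEGPH20, against 460, 401 and 354 with vehicle. Its overlap came from PEGPH20 replicate 19, which lay below vehicle replicate 14, and its log2 difference was 0.25 ± 0.12 (limma, adjusted p = 0.435). The phosphofructokinase subunits Pfkl, the liver type, and Pfkp, the platelet type, catalyse the committed step. Pfkl averaged 233 ± 26.1 with PEGPH20 and 198 ± 28.8 with vehicle, while Pfkp averaged 562 ± 91.5 with PEGPH20 and 513 ± 173 with vehicle (SD, n = 4 and 3). The aldolases split the sugar bisphosphate: Aldoa averaged 2176 ± 248 with PEGPH20 and 2002 ± 389 with vehicle, and Aldoc 94.5 ± 17.4 with PEGPH20 and 77.9 ± 39.8 with vehicle. Tpi1, which interconverts the resulting triose phosphates, averaged 675 ± 96.6 with PEGPH20 and 634 ± 112 with vehicle. All 5 overlapped between groups. Vehicle replicate 33 was the lowest vehicle library in 7 of the 9 genes of this group (77.8%), against 35.2% of all genes. Without that library the median log2 difference of the 9 genes was -0.03. That library also had the highest fibroblast marker sum, 45193 against 17701 and 19341 in the other vehicle libraries, and the lowest cell-cycle marker sum. Cell-cycle markers summed to 6718 to 8593 with PEGPH20 and 4383 to 7477 with vehicle, and their part in these values was not tested.

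The lower glycolytic enzymes, which carry the ATP-yielding steps, showed no common direction, with 3 of 5 larger under PEGPH20. Eno1, the enolase, read 229, 254, 207 and 209 with PEGPH20, against 242, 126 and 195 with vehicle, where replicate 16 stood low. Its log2 difference was 0.30 ± 0.20 (limma, adjusted p = 0.548). Pkm, pyruvate kinase of muscle and tumours, averaged 1361 ± 154 with PEGPH20 and 1267 ± 120 with vehicle, and Pgam1, phosphoglycerate mutase, 45.2 ± 5.88 with PEGPH20 and 41.3 ± 3.85 with vehicle. Gapdh, the dehydrogenase often used as a reference gene, averaged 137 ± 10.1 with PEGPH20 and 153 ± 22.4 with vehicle, a log2 difference of -0.16 ± 0.13. Under TMM, DESeq2 or upper-quartile scaling the groups of Gapdh did not overlap, with PEGPH20 lower, and its adjusted p passed 0.05 in none of these. Pgk1, phosphoglycerate kinase, read 38.9, 31.0, 31.5 and 33.6 with PEGPH20, against 52.3, 42.3 and 20.8 with vehicle, so its vehicle libraries lay on both sides of the PEGPH20 range. Pgk1 and Pgam1 read far below Pkm, with 24 and 41 reads in the lowest library of each. The reason for these low levels was not tested. The 3′ end of Gapdh is not unique in the transcriptome. The last 300 bases of its transcripts share a stretch with 135 other genes, of which 127 are annotated pseudogenes. Such a stretch had at least 75 bases at 95% identity or more. The 129 of these genes with values here summed to 76.8 to 108 normalised read counts per library, against 123 to 179 for Gapdh. The Gapdh level and its differences are thus uncertain. In all, 12 of the 34 members had a partner gene by this rule, among them Ldha with 6, Eno1 with 5, Pkm with 4 and Aldoa with 2. The search covered both strands. For Pfkp, Mxi1 and Ndrg1 the only partner, Pitrm1, Gm10197 and Gm2895, shares their exons on the other strand, which is no multiple alignment. How multiply aligned reads were counted is not stated.

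The fate of pyruvate was covered by Ldha, Slc16a3 and Pdk1, and only Ldha separated the groups. Slc16a3, the lactate exporter MCT4, read 85.3, 94.4, 78.4 and 76.6 with PEGPH20, against 94.2, 53.3 and 112 with vehicle. Vehicle replicates 16 and 33 of Slc16a3 were the lowest and the highest of all 7 tumours, and the sign of its difference (0.01 ± 0.23) turned under 8 of 16 alternatives, among them all 3 other scalings. Pdk1, the kinase that keeps pyruvate out of the mitochondrial dehydrogenase, averaged 433 ± 83.7 with PEGPH20 and 412 ± 29.8 with vehicle. Pfkfb3 and Pfkfb4 make and break down the fructose bisphosphate that activates phosphofructokinase, and both are HIF targets. Pfkfb3 read 186, 214, 166 and 131 with PEGPH20, against 318, 168 and 193 with vehicle. Its log2 difference of -0.34 ± 0.23 (limma, adjusted p = 0.553) leaned on vehicle replicate 14, without which it was -0.07. Pfkfb4 averaged 86.6 ± 11.9 with PEGPH20 and 85.7 ± 25.4 with vehicle.

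**Figure D2:**
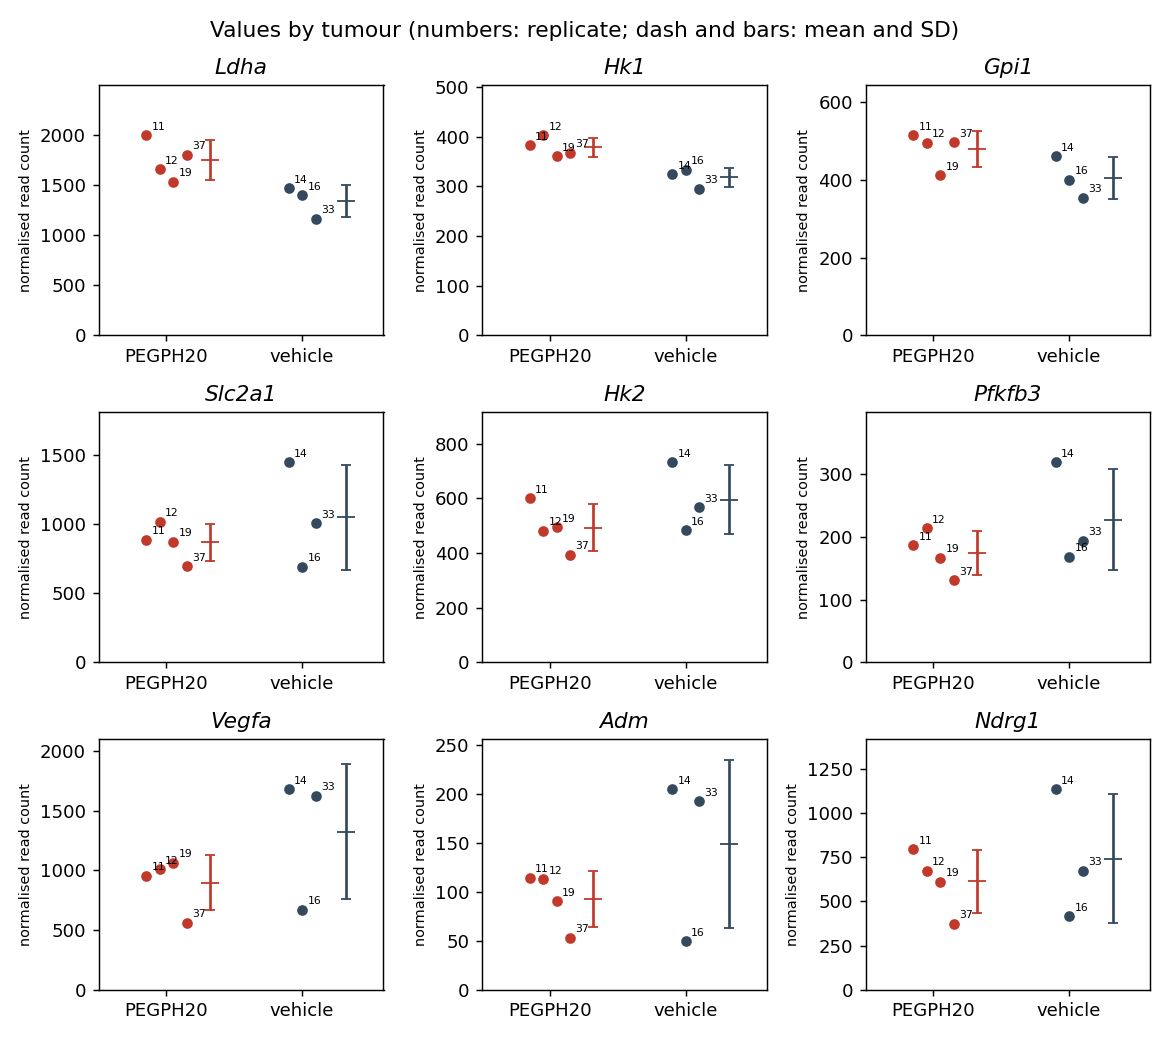
Normalised read counts (vertical axes, from 0) of 9 members in each tumour, PEGPH20 left and vehicle right, with replicate numbers beside the points and the mean and SD of each group. Ldha and Hk1 do not overlap between groups, whereas in Slc2a1, Vegfa, Adm and Ndrg1 vehicle replicate 14 is the highest vehicle tumour and vehicle replicate 16 the lowest.

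The oxygen-sensing genes differed little in mean and were smaller with PEGPH20 in 3 of 3. Hif1a, which encodes the regulated alpha subunit (chromosome 12, 73901375 to 73947530), read 1297, 1457, 1185 and 1065 with PEGPH20, against 1704, 1235 and 1256 with vehicle. The groups overlapped, with vehicle replicate 14 above all others, and the log2 difference was -0.15 ± 0.14 (limma, adjusted p = 0.677). HIF activity is set mainly by the stability of this protein, so the transcript is no measure of it. Egln1 encodes PHD2, the main prolyl hydroxylase, and averaged 311 ± 72.2 with PEGPH20 and 319 ± 12.2 with vehicle. Egln3 encodes PHD3, the hydroxylase most strongly induced by HIF. It read 955, 1062, 693 and 801 with PEGPH20, against 1465, 857 and 766 with vehicle, again with vehicle replicate 14 apart (log2 difference -0.19 ± 0.22, limma, adjusted p = 0.752).

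Among the 8 intracellular HIF targets, 6 had smaller mean log2 values with PEGPH20, with a median log2 difference of -0.07, and none separated the groups. Ddit4 encodes REDD1, an inhibitor of mTORC1. It read 471, 528, 417 and 355 with PEGPH20, against 673, 342 and 640 with vehicle. Vehicle replicates 14 and 33 of Ddit4 lay above every PEGPH20 tumour and vehicle replicate 16 below all of them (log2 difference -0.27 ± 0.23, limma, adjusted p = 0.641). Ndrg1, a stress-responsive gene used in hypoxia signatures, read 796, 674, 611 and 374 with PEGPH20, against 1135, 415 and 674 with vehicle. It spread 2.13-fold among PEGPH20 tumours and 2.73-fold among vehicle tumours. The mitophagy receptors went the other way in mean: Bnip3 averaged 801 ± 222 with PEGPH20 and 739 ± 234 with vehicle, and Bnip3l 344 ± 25.9 with PEGPH20 and 307 ± 35.2 with vehicle. The histone demethylase Kdm3a averaged 323 ± 29.7 with PEGPH20 and 348 ± 35.7 with vehicle. Mxi1, a MYC antagonist, averaged 359 ± 25.6 with PEGPH20 and 373 ± 87.5 with vehicle. The mitochondrial protein gene Higd1a averaged 156 ± 31.0 with PEGPH20 and 157 ± 42.0 with vehicle, and Ankrd37, an ankyrin-repeat gene induced by HIF, 41.2 ± 11.2 with PEGPH20 and 45.2 ± 13.9 with vehicle.

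The secreted and cell-surface targets held the largest differences in mean and also the widest spread. Vegfa, the main angiogenic growth factor (chromosome 17, 46016993 to 46032369), read 955, 1011, 1064 and 562 with PEGPH20, against 1680, 672 and 1627 with vehicle. Vehicle replicates 14 and 33 lay above all 4 PEGPH20 tumours, while vehicle replicate 16 lay below 3 of them. The means were 898 ± 228 with PEGPH20 and 1326 ± 567 with vehicle (SD, n = 4 and 3), a log2 difference of -0.49 ± 0.33 (limma, adjusted p = 0.555). Adm, the vasodilator peptide adrenomedullin, read 114, 113, 90.6 and 53.3 with PEGPH20, against 205, 49.6 and 193 with vehicle. It had the same order of vehicle tumours as Vegfa and a log2 difference of -0.49 ± 0.47 (limma, adjusted p = 0.687). Angptl4, a secreted inhibitor of lipoprotein lipase, read 28.2, 32.4, 28.2 and 18.97 with PEGPH20, against 33.1, 11.9 and 41.6 with vehicle. Car9, a surface carbonic anhydrase that handles acid in hypoxic tumours, averaged 36.7 ± 9.46 with PEGPH20 and 31.1 ± 9.31 with vehicle.

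**Figure D3:**
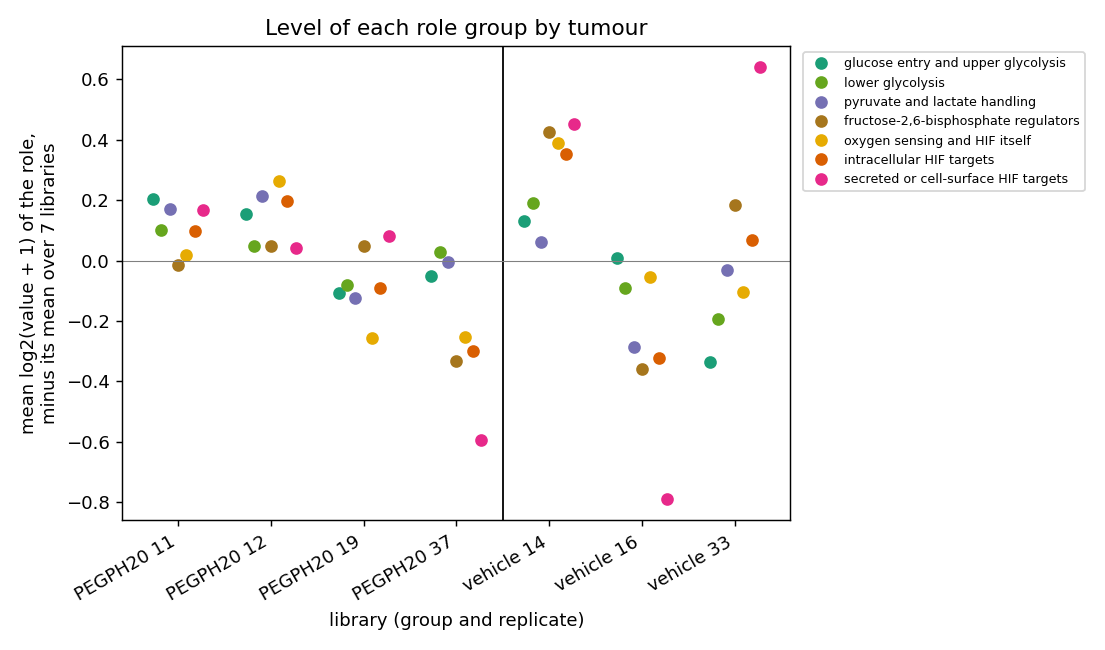
Mean log2(value + 1) of the members of each role (colours) in each library, minus the mean of that role over the 7 libraries (vertical axis), with PEGPH20 libraries left of vehicle libraries. The secreted or cell-surface HIF targets lie at 7.09 and 7.27 in vehicle replicates 14 and 33 before this subtraction and at 5.85 in vehicle replicate 16, on both sides of the PEGPH20 libraries at 6.04 to 6.80.

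A shared pattern lay among tumours of the same group. Vehicle replicate 16 was the lowest vehicle tumour in 11 of the 12 intracellular, secreted and surface HIF targets (91.7%), against 30.2% of all genes tested. Vehicle replicate 14 was the highest vehicle tumour in 24 of the 34 members (70.6%), against 23.7% of all genes. Within the PEGPH20 group, replicate 37 was the lowest in 10 of the same 12 targets (83.3%), against 30.6% of all genes. The pattern was weaker in the 35 other HIF targets described below. There vehicle replicate 16 was the lowest vehicle tumour in 19 (54.3%) and vehicle replicate 14 the highest in 19 (54.3%). PEGPH20 replicate 37 was the lowest of its group in 21 (60%). The upper glycolytic genes shared only part of this order. Vehicle replicate 33 was their lowest vehicle tumour in 7 of 9 (77.8%), against 35.2% of all genes. Vehicle replicate 14 was their highest in 5 of 9 (55.6%), against 23.7% of all genes. As a mean over the role, the upper glycolytic genes stood at 8.75 to 9.06 on the log2(value + 1) scale with PEGPH20, and at 8.99, 8.87 and 8.52 in vehicle replicates 14, 16 and 33. The intracellular HIF targets stood at 7.91 to 8.41 with PEGPH20, and at 8.56, 7.89 and 8.28 in the same vehicle replicates. Vehicle replicate 16 was also the library richest in muscle transcripts, and vehicle replicate 14 the one richest in keratinocyte transcripts, with a neutrophil marker sum of 1133 against 405 and 311 in the other vehicle libraries. The part of these tissues in the order of the HIF targets was not tested.

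**Figure D4:**
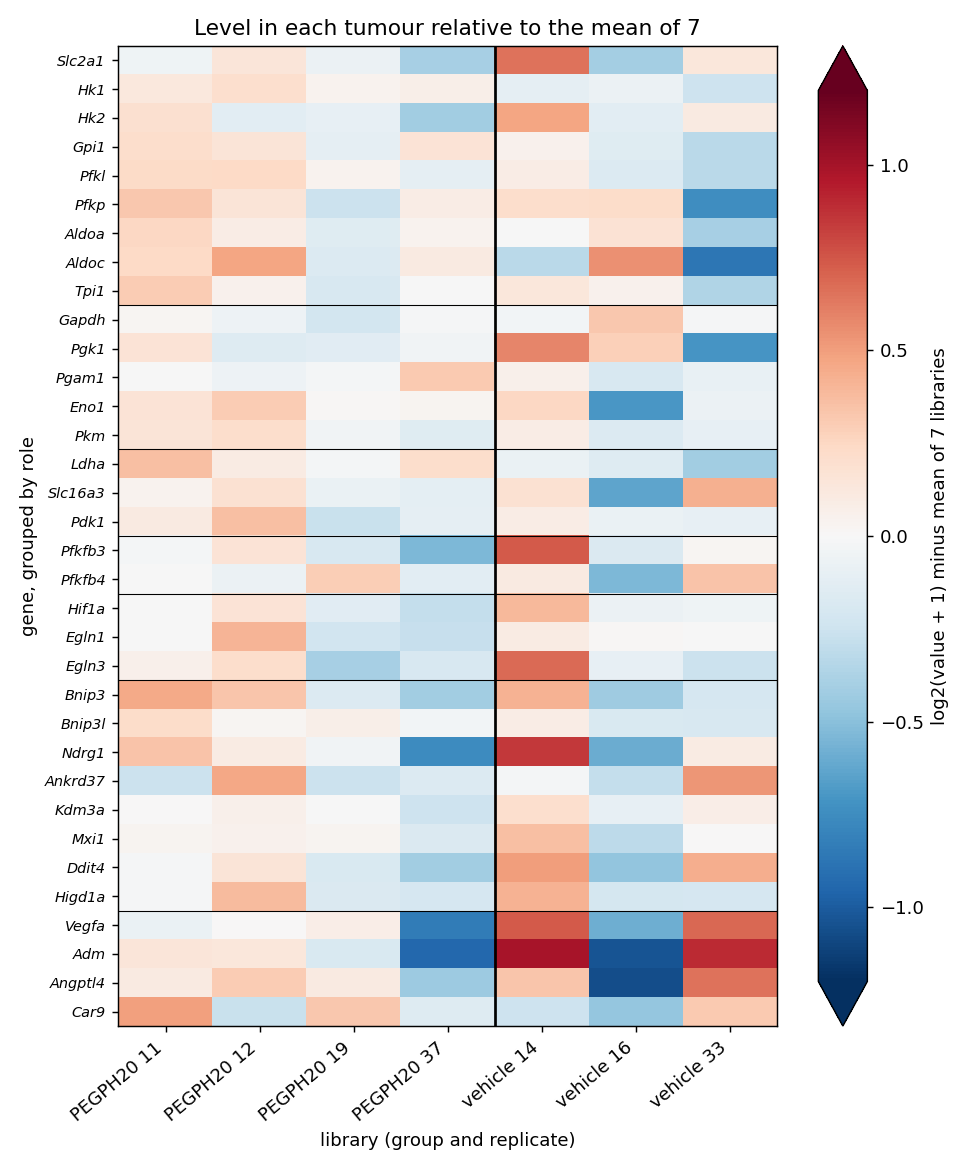
Log2(value + 1) of each member minus its mean over the 7 libraries (colour) by gene (rows, grouped by role) and library (columns, PEGPH20 left of the line). Vehicle replicate 14 is the highest vehicle tumour for 24 of 34 members, and vehicle replicate 16 and PEGPH20 replicate 37 are low for most HIF targets.

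The members also spread more among vehicle tumours. The SD of log2(value + 1) was larger among vehicle than among PEGPH20 tumours in 30 of 34 members (88.2%), against 60.6% of all genes tested, and in all 12 HIF targets of the intracellular, secreted and surface groups. The median SD over the members was 0.22 with PEGPH20 and 0.38 with vehicle, and over all genes 0.24 with PEGPH20 and 0.29 with vehicle. In 35 other HIF targets the SD was larger in vehicle in 31, a count of 20 without vehicle replicate 14, 19 without replicate 16 and 23 without replicate 33. Adm differed 2.15-fold between its highest and lowest PEGPH20 tumour and 4.13-fold between its highest and lowest vehicle tumour, and Angptl4 1.71-fold with PEGPH20 and 3.49-fold with vehicle. The range was 1.89-fold with PEGPH20 and 2.50-fold with vehicle for Vegfa, and 1.56-fold with PEGPH20 and 2.71-fold with vehicle for Aldoc. The opposite held for Egln1, at 1.61-fold with PEGPH20 and 1.07-fold with vehicle, and for Pdk1, at 1.55-fold with PEGPH20 and 1.14-fold with vehicle. Without vehicle replicate 14 the count was 20 of 34 members (58.8%), against 54.9% of all genes; without replicate 16 it was 23 (67.6%), against 42.1%, and without replicate 33 it was 24 (70.6%), against 51.1%.

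**Figure D5:**
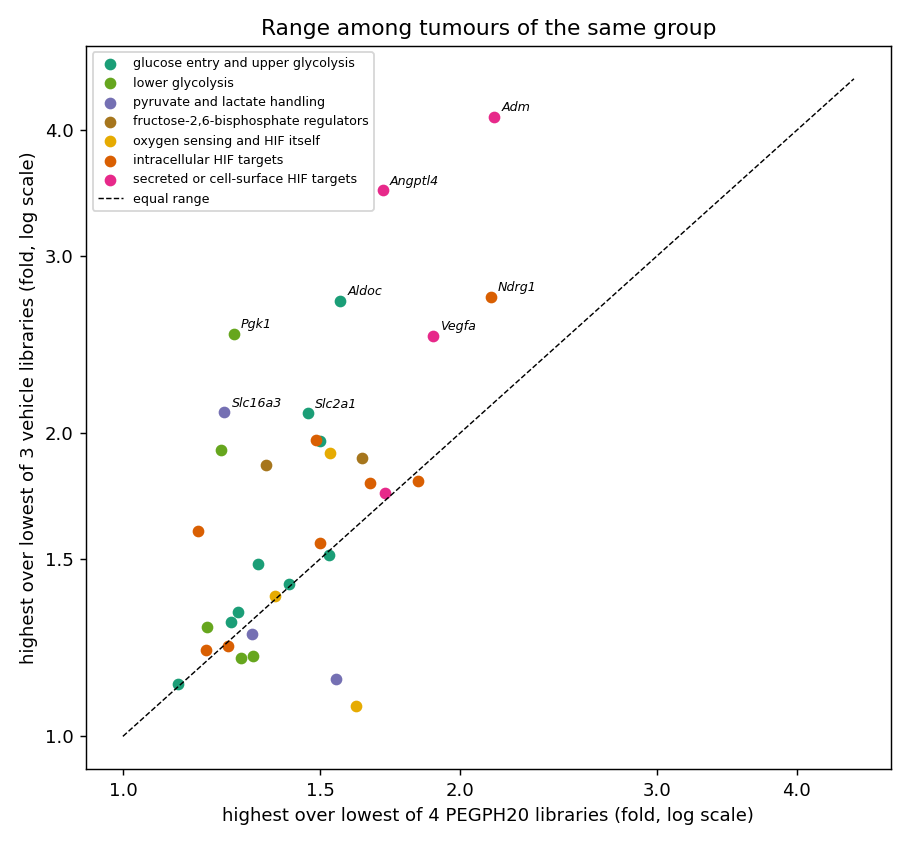
Highest over lowest normalised read count among the 4 PEGPH20 libraries (horizontal axis, fold, log scale) and among the 3 vehicle libraries (vertical axis, fold, log scale) for each member, coloured by role; the dashed line marks equal ranges. The vehicle range is the wider one for 26 of 34 members, and Adm (4.13-fold) and Angptl4 (3.49-fold) lie highest.

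The counts between the groups moved with the vehicle tumours kept. Without vehicle replicate 16, 9 of 34 members had an unadjusted p under 0.05, against 20.3% of all genes. Of these, Hk1, Aldoc and Ldha were larger with PEGPH20 (13.2% of all genes), and Slc2a1, Hk2, Pfkfb3, Ddit4, Vegfa and Adm were smaller (7.11% of all genes). In that setting the log2 difference was -1.15 for Adm, -0.92 for Vegfa and -0.58 for Ddit4, with limma's adjusted p of 0.0808, 0.0848 and 0.0913, and 0 members passed 0.05. Without vehicle replicate 14, 6 of 34 members had an unadjusted p under 0.05, against 9.61% of all genes (5.20% with PEGPH20 higher and 4.41% lower), and all of these, Hk1, Gpi1, Pfkl, Eno1, Ldha and Bnip3l, were larger with PEGPH20. The log2 difference of Vegfa was then -0.26 and that of Adm -0.14. Without vehicle replicate 33 the members at that p were Ldha, larger with PEGPH20, and Pgk1, smaller, against 7.72% of all genes. Hk1 and Ldha kept larger means with PEGPH20 under each of the 16 alternatives run, at log2 differences of 0.20 to 0.30 for Hk1 and 0.28 to 0.45 for Ldha. Hk1 lost its unadjusted p under 0.05 in DESeq2, without PEGPH20 replicate 12 and without vehicle replicate 33. Ldha lost it without the 3 libraries richest in muscle transcripts.

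Other genes of the pathway were taken from 3 lists, and limma called 0 of their 82 tested genes, as it called 0% of all genes. The list of other HIF targets held 8 genes at an unadjusted p under 0.05 with smaller values under PEGPH20, of 35 tested (22.9%), against 4.58% of all genes, and 2 with larger values, against 7.58%. Its median log2 difference was -0.17, with 23 of 35 smaller. Bhlhe40, a HIF-induced repressor of the circadian and differentiation programs, read 750, 726, 776 and 551 with PEGPH20, against 1455, 767 and 1326 with vehicle. The Bhlhe40 groups overlapped at vehicle replicate 16 alone, and the log2 difference was -0.71 ± 0.21 with an adjusted p of 0.325 in limma and 0.0497 in DESeq2; an antisense gene shares its exons. Rora, a nuclear receptor, averaged 83.2 ± 18.1 with PEGPH20 and 143 ± 37.4 with vehicle without overlap (limma, adjusted p = 0.313), and Tmem45a, a membrane protein gene, 18.5 ± 6.71 with PEGPH20 and 42.0 ± 17.8 with vehicle, also without overlap. On the other side, Mif, a cytokine gene, averaged 466 ± 43.4 with PEGPH20 and 361 ± 37.5 with vehicle, Stc2, a secreted glycoprotein gene, 39.2 ± 10.5 with PEGPH20 and 25.6 ± 6.57 with vehicle, and Anln, an actin-binding protein of cytokinesis, 484 ± 91.9 with PEGPH20 and 389 ± 144 with vehicle. Fibroblast markers summed to 8395 to 21837 with PEGPH20 and 17701 to 45193 with vehicle over 11 genes, ranges that overlap, and their part in these values was not tested.

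Among 15 other regulators of HIF, Hif3a stood out. Hif3a encodes an alpha subunit whose short forms can restrain HIF. It had 17, 34, 17 and 14 reads in PEGPH20 replicates 11, 12, 19 and 37, against 2, 1 and 4 reads in vehicle replicates 14, 16 and 33, without overlap. Per read sequenced the pooled level was 6.94 times higher with PEGPH20, with a 95% exact interval of 3.22 to 17.8 that covers counting error only. The log2 difference was 2.33 ± 0.42 (limma, adjusted p = 0.238), so it did not pass the threshold. Cited2, which competes with HIF for its coactivators, averaged 186 ± 31.7 with PEGPH20 and 250 ± 37.8 with vehicle, with overlap. Eloc, a subunit of the VHL ligase, averaged 441 ± 26.6 with PEGPH20 and 543 ± 94.8 with vehicle, without overlap. The asparaginyl hydroxylase gene Hif1an averaged 242 ± 24.4 with PEGPH20 and 268 ± 9.53 with vehicle, the hydroxylase gene Egln2 157 ± 4.27 with PEGPH20 and 142 ± 51.6 with vehicle, and the ligase scaffold gene Cul2 119 ± 3.64 with PEGPH20 and 107 ± 9.51 with vehicle. In this list of 15, 1 gene was larger and 2 were smaller at an unadjusted p under 0.05, against 7.58% and 4.58% of all genes.

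Of 32 tested genes in the list of other glycolysis and gluconeogenesis genes, 1 had an unadjusted p under 0.05, a smaller share than the 12.2% of all genes. It was Bpgm, which makes the bisphosphoglycerate that loosens oxygen from haemoglobin and which draws on a glycolytic intermediate. Bpgm read 52.2, 62.7, 71.3 and 64.9 with PEGPH20, against 118, 92.8 and 109 with vehicle. The groups did not overlap, and the log2 difference was -0.76 ± 0.15 with an adjusted p of 0.275 in limma and 0.0214 in DESeq2. Bpgm is abundant in red blood cells, whose 6 markers summed to 307 to 610 with PEGPH20 and 361 to 402 with vehicle. The 3 genes of this list with the smallest p among those larger with PEGPH20 overlapped between groups. Mpc1, a subunit of the pyruvate carrier, averaged 51.3 ± 12.8 with PEGPH20 and 37.8 ± 12.7 with vehicle, Pdp2, a phosphatase that activates pyruvate dehydrogenase, 23.8 ± 2.14 with PEGPH20 and 17.5 ± 5.53 with vehicle, and Pcx, pyruvate carboxylase, 42.3 ± 11.7 with PEGPH20 and 29.5 ± 11.3 with vehicle. Pdk3, a kinase of the dehydrogenase, averaged 78.4 ± 10.3 with PEGPH20 and 88.4 ± 5.78 with vehicle, and Slc2a4, the insulin-responsive glucose transporter, 13.2 ± 4.00 with PEGPH20 and 17.1 ± 2.15 with vehicle.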

How the data were processed

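Each of the 7 tumours gave a 3′ mRNA library (QuantSeq FWD kit, optional molecular identifiers, 200 ng RNA) read from a single end for 75 nt, per the labels' protocols. The submitters' processing notes name the build GRCm38. For aligner, counter, strand setting and use of the identifiers the entry is: not given in the sources used here. In the deposited signal, each library has its own value of 1 read, and dividing by it returned whole reads for 100% of entries above 0 (tolerance 0.01).

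Values are called normalised read counts. The main test was limma 3.58.1 on log2(value + 1) with an intensity trend, genes with a mean of at least 1, treatment as the only term, and Benjamini-Hochberg adjustment over 17132 genes at 0.05; a fold change on this scale understates low genes. Alternatives were edgeR 4.0.16 (quasi-likelihood test) and DESeq2 1.42.0 on the recovered reads, 3 scalings, a pseudocount of 0.1, 2 filters, a threshold of 0.1 and each library left out. A further alternative, chosen after seeing the data, left out the 3 muscle-rich libraries. The limma step was also run on simulated data, with the same variability for all genes and larger changes than any of the 34 members had. That run does not measure how well changes of the members' size would be found. Members, role groups and lists were chosen with earlier results of these data known. Named genes were all 34 members and, of the 3 other lists, the 3 per list and direction with the smallest p and a mean of at least 5. Symbols came from a mouse gene name table, for 47224 of 47643 identifiers, and gene coordinates from GENCODE M21 (GRCm38). Exons shared with a gene on the other strand occurred in 14 members and on the same strand in 2, whose values are uncertain. Promoters are from RefSeq. Protein sequences were not used here.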

Additional observations from a re-analysis of the deposited data

Results flagged for a closer look

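Within the 4 PEGPH20 libraries, 1 library lay far from the other 3 in 5 of 52 genes examined. The rule nominally passes about 1 case in 20 for independent, normally distributed values. These genes were all read in the same 4 libraries, and the share over all genes was not computed. The count is thus no measure of an excess. Ankrd37 read 57.9 normalised read counts in replicate 12, against 34.8 to 37.2 in the others. Pgam1 read 54.0 in replicate 37, against 41.3 to 43.1. Mxi1 read 320 in replicate 37, against 370 to 374. Slc2a4 read 7.30 in replicate 37, against 14.5 to 15.7, and Mif read 401 in replicate 19, against 484 to 493.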

How the results depend on the processing

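No paired analysis was possible because the groups share no replicate number. Over 16 alternatives, 0 of 34 members passed the threshold in limma, edgeR or DESeq2, nor did any in limma at an adjusted p under 0.1 with all 7 libraries, and 16 members kept the sign of their log2 difference in every one. Leaving out each library in turn gave 1 to 9 members at an unadjusted p under 0.05 and 2 to 8 without overlap, and 7 to 28 of the 82 other pathway genes at that p; over all genes the shares moved too, from 7.72% to 20.3% at that p and from 14.5% to 30.5% without overlap. It also turned the sign of Bnip3 (-0.0582 to 0.36), Higd1a (-0.13 to 0.21), Slc16a3 (-0.30 to 0.23), Pdk1 (-0.0604 to 0.15), Angptl4 (-0.48 to 0.38), Pfkfb4 (-0.20 to 0.24), Egln1 (-0.21 to 0.0228), Ndrg1 (-0.56 to 0.16), Mxi1 (-0.20 to 0.14), Slc2a1 (-0.49 to 0.0453), Pgk1 (-0.47 to 0.17), Egln3 (-0.37 to 0.0965), Pfkp (-0.14 to 0.34), Aldoa (-0.0270 to 0.26), Tpi1 (-0.0569 to 0.19) and Ankrd37 (-0.30 to 0.10), given as the range over the left-out libraries. Both edgeR and DESeq2 turned Slc16a3 (-0.0934 and -0.0926), Pfkfb4 (-0.0251 and -0.0253) and Angptl4 (-0.15 and -0.15). Slc16a3 also turned with DESeq2 size factors (-0.0199), TMM (-0.0121) and upper-quartile scaling (-0.0258) in limma. These 3 scalings moved the median of all genes by less than 0.1. DESeq2 called 2 other pathway genes, Bpgm and Bhlhe40, where limma called 0. It gave an adjusted p to 13, 12 and 23 genes of the 3 lists and called 0.979% of the 7864 genes with one. Without the 3 muscle-rich libraries, chosen after seeing the data, 2 libraries per group remained, 6 members had an unadjusted p under 0.05 against 11% of all genes, and 11 did not overlap against 44.0% of all genes. That removal turned Pgam1 (-0.0353), Slc16a3 (-0.25), Pfkfb4 (-0.12), Egln1 (0.0403), Bnip3 (-0.0276), Angptl4 (-0.29) and Car9 (-0.00283). The cause of these turns was not tested. Depth limits the low genes: Hif3a had 1 to 34 reads per library.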

Other observations

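Pgam2, the muscle phosphoglycerate mutase, read 14.9, 0.69, 0.55 and 2.92 normalised read counts in PEGPH20 replicates 11, 12, 19 and 37, against 0, 60.7 and 3.47 in vehicle replicates 14, 16 and 33. Eno3, the muscle enolase, read 72.1, 33.1, 40.3 and 33.6 with PEGPH20, against 20.9, 190 and 27.8 with vehicle. Pfkm, the muscle phosphofructokinase, read 34.8, 13.8, 14.9 and 28.5 with PEGPH20, against 9.59, 90.1 and 18.2 with vehicle. The highest value of each of the 3 was in vehicle replicate 16, the library with the most muscle transcripts. Aldoa, the aldolase of muscle and of many other cells, was also highest in vehicle replicate 16 within its group (2350, against 2072 and 1583 in replicates 14 and 33), and highest of all in PEGPH20 replicate 11 at 2481. Its part from muscle was not tested.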
